A study of Homo sapiens with 2 samples.

Results

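The genes of the primary cilium and of Hedgehog signalling were examined in PC3, a human prostate cancer cell line, and in its cabazitaxel-resistant subline PC3CR. Of 19775 genes measured, 54 were selected by name. The choice of genes uses no measured value, but the set was drawn up with earlier results of these arrays known. Which probe set stands for a gene depends on measured values, as it is the one with the highest mean of both arrays. The 54 genes comprise subunits of the intraflagellar transport complexes IFT-A and IFT-B and of the BBSome, with assembly factors of the latter. Also among them are genes of the transition zone, the transport motors, basal body and cargo targeting proteins, and 5 genes of the Hedgehog pathway. All 54 had at least 1 probe set, and 38 had several. PC3CR was derived from PC3 by 18 months of passage in medium with cabazitaxel (CBZ), a taxane that stabilises microtubules, and was examined 3 months after the drug had been withdrawn, while both lines were kept in the same medium. PC3CR is a single subline, and whether it is 1 clone is not given in the sources used here. Total RNA of each line was hybridised to 1 Affymetrix array. Values are on the log2 scale of the robust multichip average (RMA), so that a difference of 1 between PC3CR and PC3 is 2-fold, the threshold of the study's methods. With 1 array per line there was no replicate, no error and no test for any difference, and precision is limited by this number of arrays. Less RNA per cell and fewer cells that express a gene cannot be told apart in such bulk values.

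The primary cilium is a thin projection that most cells raise when they leave the cell cycle and take down before they divide. Its core is a bundle of microtubules that grows from the basal body, the older centriole of the cell. Kinesin motors carry trains of IFT-B outward, dynein motors bring them back with IFT-A, the BBSome exports membrane proteins, and the transition zone at the base is the gate. Vertebrate Hedgehog signalling runs through this organelle. Without ligand the receptor PTCH1 holds the transducer SMO out of the cilium, and GLI proteins, chiefly GLI3, are cut into repressors. PTCH1 is itself a target of GLI activators.

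Promoter sequences are shown first, because they hold a feature that the choice of genes did not use. RFX transcription factors control many ciliary genes through the X-box, an inverted repeat. Promoters were taken from RefSeq on GRCh38.p14, which gave windows of 300 bases (250 before the start site and 50 after it) for 49 of the 54 genes. The X-box was searched on both strands as the arms GTTNCC and GGNAAC with the bases AT between them, and also with 0, 1, 2 or 3 bases of any kind between them. The strict form was in none of the members and in 0.140% of all promoter windows. The looser forms were in the promoters of ARL6, TCTN1, TCTN3 and IFT122, of which none differed by 2-fold between the arrays. They are shown with the whole match in capitals, in 5′ to 3′ direction on the strand of the gene.
ARL6, chr3:97764709-97764772, plus strand: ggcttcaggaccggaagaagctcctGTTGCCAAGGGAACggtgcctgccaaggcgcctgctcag
TCTN1, chr12:110614104-110614148, plus strand: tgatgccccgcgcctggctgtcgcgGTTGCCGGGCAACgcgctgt
TCTN3, chr10:95694105-95694167, minus strand: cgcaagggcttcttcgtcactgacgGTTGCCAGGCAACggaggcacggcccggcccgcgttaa
IFT122, chr3:129440187-129440243, plus strand: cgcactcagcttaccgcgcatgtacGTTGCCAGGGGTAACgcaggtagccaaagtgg

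The spacing between the arms was 2 bases in ARL6, 1 base in TCTN1 and TCTN3 and 3 bases in IFT122. The form with 2 bases was in 0.490% of all windows, that with 1 base in 0.159% and that with 3 bases in 0.0683%. A single arm of the X-box, GTTGCC on either strand, was more frequent and overlaps the longer forms. It was in the promoters of 21 of the 49 members (42.9%) and of 14.6% of all 27305 genes in the table. Among the members past 2-fold upward, 4 of 12 held GTTGCC, and among the others 17 of 37 did. The median difference was 0.27 with the arm and 0.38 without it. The share with the arm was thus not larger among the members past 2-fold. The 4 were IFT81, IFT74, TTC8 and PTCH1, which had the 4 largest differences of the 54, and they are shown with GTTGCC in capitals. In PTCH1, TGGGTGGTC is in capitals too, the reverse complement of the GLI motif GACCACCCA.
IFT81, chr12:110124277-110124376, plus strand: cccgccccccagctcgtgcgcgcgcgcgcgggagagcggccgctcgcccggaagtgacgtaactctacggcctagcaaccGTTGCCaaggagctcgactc
IFT74, chr9:26956304-26956419, plus strand: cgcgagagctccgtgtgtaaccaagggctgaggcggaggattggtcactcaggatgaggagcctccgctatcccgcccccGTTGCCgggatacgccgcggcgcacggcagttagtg
TTC8, chr14:88824605-88824634, plus strand: cagccgtcgcggGTTGCCgggcagagtcgg
PTCH1, chr9:95509350-95509516, minus strand: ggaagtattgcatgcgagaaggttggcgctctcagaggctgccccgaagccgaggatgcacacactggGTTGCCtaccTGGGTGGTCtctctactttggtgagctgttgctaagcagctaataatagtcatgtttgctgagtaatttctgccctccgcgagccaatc

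The GLI motif was in 0.236% of all windows, and among the members in PTCH1 and in TMEM216. The motifs TTTCGCGC and TTTGGCGC, which E2F factors of the cell cycle bind, were in 0.515% and 0.652% of all windows and in none of the members. A match is a description of the letters in a window and was not tested for binding.

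Cilium and Hedgehog genes were more often higher than lower in PC3CR. Of the 54 genes, 13 were at least 2-fold higher (24.1%), against 9.84% of all genes, and none was at least 2-fold lower, against 6.72% of all genes. The other 41 lay within 2-fold, and OFD1, at -0.99, was just inside that limit. The median difference was 0.35, against -0.04 over all genes. A difference above 0 was found for 39 members (72.2%), against 45.2% of all genes. Centring on the median of each array lowered every difference by 0.12, the gap between the medians of 5.93 in PC3 and 6.05 in PC3CR, and left 34 members above 0, against 36.7% of all genes. A floor then kept a gene if its higher value reached the array median. With it, 12 of 48 members were at least 2-fold higher, against 15.6% of such genes, and the medians were 0.43 and 0.09. Of the 12, IFT81, IFT74, BBS7 and PTCH1 passed this floor only through PC3CR, since their PC3 values lay below the PC3 median. The floor is thus not separate from the differences. These counts depend on the probe set that stands for a gene, here the brightest. With all probe sets of each gene averaged, 4 of 54 members were at least 2-fold higher (7.41%), against 6.92% of all genes, so that the share past 2-fold was near the background, while the median was still 0.26.

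**Figure D1:**
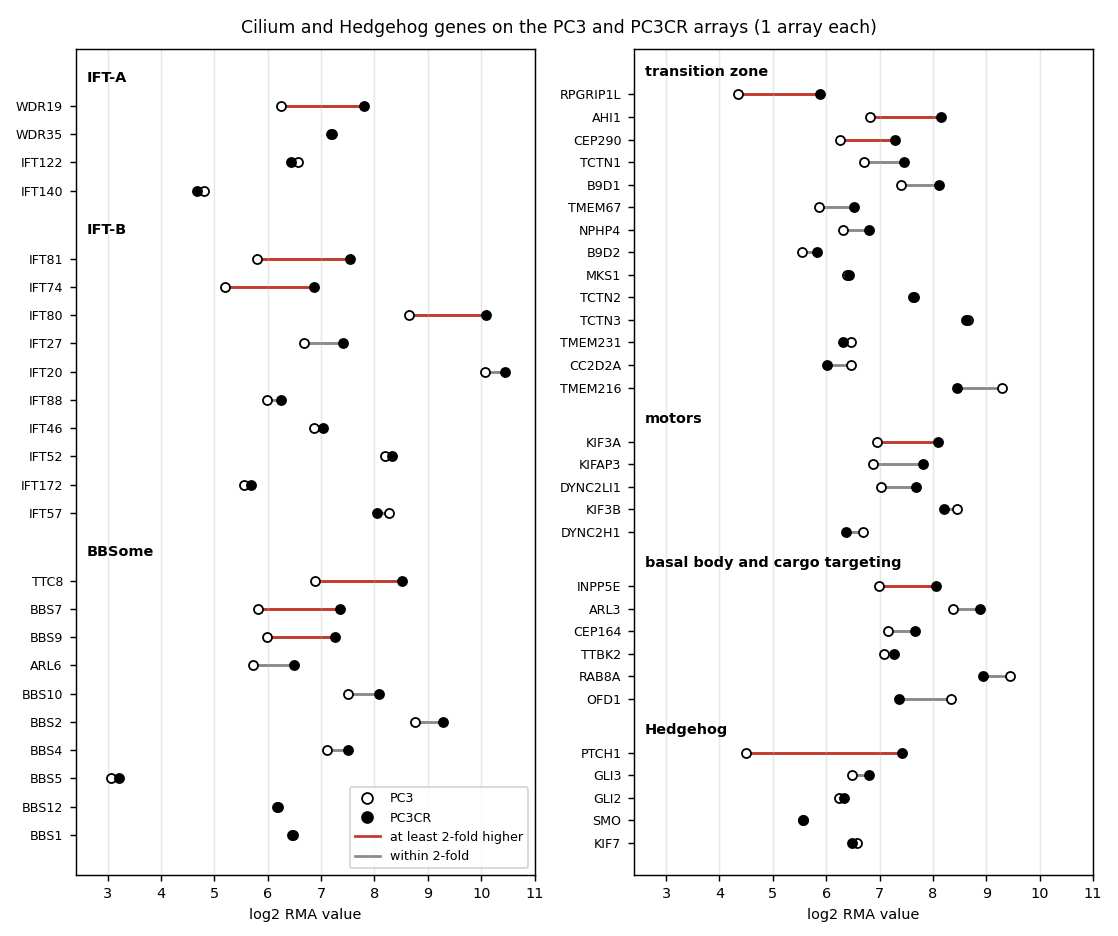
Log2 RMA values (horizontal axis) of the 54 genes on the PC3 array (open circles) and the PC3CR array (filled circles), grouped by role, with 1 array per cell line. Red lines mark genes past 2-fold upward and grey lines those within 2-fold. PTCH1 has the longest line, from 4.50 to 7.43.

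IFT-B, the complex of outward transport, had 10 genes among the 54, of which 3 were at least 2-fold higher, against 9.84% of all genes. IFT81 and IFT74, partners that together bind tubulin as cargo, were the largest of them. IFT81 had 5.80 on the PC3 array and 7.54 on the PC3CR array, which is 1.73 higher or 3.33-fold. IFT74 had 5.20 and 6.87, which is 1.67 higher or 3.18-fold. Both partners thus lay past 2-fold in the same direction. The peripheral subunit IFT80 was at 8.64 and 10.10, a difference of 1.46, and a second bright probe set of this gene went from 8.41 to 9.73. The other 7 members, IFT27, IFT20, IFT88, IFT46, IFT52, IFT172 and IFT57, differed by between -0.23 and 0.74. IFT27, a small GTPase that links IFT-B with BBSome export, was the largest of these. Part of the complex was thus past 2-fold, and IFT88, IFT52 and IFT46, which sit with IFT81 and IFT74 in its core, differed by 0.26, 0.14 and 0.17. With probe sets averaged, IFT74 was past 2-fold at 1.21, while IFT81 was at 0.80 and IFT80 at 0.59. The probe sets of IFT81 ranged from -0.13 to 1.73 and those of IFT80 from -0.22 to 1.46. The median of IFT-B was 0.32.

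IFT-A, the complex of return transport, had 4 genes among the members, of which 1 was past 2-fold upward, against 9.84% of all genes. WDR19 had 6.25 on the PC3 array and 7.80 on the PC3CR array, 1.55 higher. The other 3 members, WDR35, IFT122 and IFT140, differed by 0.01, -0.13 and -0.13. A further IFT-A gene that is not a member, IFT43, was at 8.40 and 8.90, a difference of 0.50. The median of the 4 genes was -0.06, which became 0.06 with its probe sets averaged. WDR19 itself rested on 1 probe set of 3, since the other probe sets differed by -0.24 and -0.05 and had values below the lower quartile of genes (4.22 in PC3 and 4.10 in PC3CR).

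Of the 7 BBSome subunits among the members, 3 were at least 2-fold higher (42.9%), against 9.84% of all genes. The subunit BBIP1, which is not a member, was at 9.04 on the PC3 array and 8.90 on the PC3CR array. With the assembly factors BBS10 and BBS12 and the recruiting GTPase ARL6, the median of 10 member genes was 0.56, also with the mean of probe sets. TTC8, itself a BBSome subunit, had 6.89 on the PC3 array and 8.51 on the PC3CR array, 1.62 higher or 3.08-fold, from a single probe set. BBS7, which pairs with BBS2 in the complex, was at 5.81 and 7.36, a difference of 1.54. BBS9, a subunit of the BBSome core, was at 5.99 and 7.26, a difference of 1.27. Both probe sets of BBS7 were past 2-fold (1.54 and 1.41), and so were 3 of 5 for BBS9, with the remaining probe sets of BBS9 at 0.21 and 0.26. ARL6 differed by 0.76, BBS10 by 0.59, BBS2 by 0.52 and BBS4 by 0.38. BBS5, BBS12 and BBS1 differed by 0.15, 0.02 and -0.02, and BBS5 was the member whose values, 3.06 and 3.21, lay below the lower quartile on both arrays.

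The transition zone is built of modules, and its 14 genes went in both directions. RPGRIP1L, a scaffold of the zone, had 4.34 on the PC3 array and 5.89 on the PC3CR array, 1.54 higher. AHI1, a Joubert syndrome protein, was at 6.83 and 8.15, a difference of 1.32. CEP290, which tethers the microtubules to the membrane, was at 6.26 and 7.28, a difference of 1.02 that came within 2-fold under each of the other scalings (0.85 to 0.90). At the other end, the membrane protein gene TMEM216 was at 9.29 and 8.45, a difference of -0.83, and CC2D2A, of the same module, differed by -0.45. The remaining 9 genes lay between TMEM231 at -0.16 and TCTN1 at 0.74. Within the tectonic family TCTN1 thus stood apart from TCTN2 and TCTN3, at -0.01 and -0.04. The paired genes B9D1 and B9D2 differed by 0.71 and 0.27. The probe sets of AHI1 ranged from -0.57 to 1.32, and the second probe set of RPGRIP1L was at 0.00. The median of the 14 genes was 0.38, and 0.21 with the mean of probe sets.

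Among the motors the heterotrimeric kinesin-II was uneven. KIF3A, a motor subunit, had 6.95 on the PC3 array and 8.09 on the PC3CR array, 1.14 higher, which was 1.01 under median centring and quantile normalization and just within 2-fold under loess centring (0.999). KIFAP3, the adaptor that binds cargo, was at 6.88 and 7.80, a difference of 0.93. KIF3B, the other motor subunit, was at 8.44 and 8.21, a difference of -0.23. In the dynein of return transport, the light intermediate chain gene DYNC2LI1 differed by 0.66 and the heavy chain gene DYNC2H1 by -0.32. The second probe set of KIF3A, at 7.08 and 7.68, differed by 0.60 and was the brighter one on the PC3 array. The median of the 5 genes was 0.66.

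The basal body and cargo targeting genes held the lowest member. OFD1, a protein of centrioles and centriolar satellites encoded on the X chromosome, had 8.35 on the PC3 array and 7.36 on the PC3CR array, a difference of -0.99, and passed 2-fold downward under the other scalings (-1.11 under each). Its second probe set went the same way, from 5.10 to 2.78. INPP5E, the ciliary phosphoinositide phosphatase, was at 7.0 and 8.05, a difference of 1.05, from a single probe set, and at 0.92 to 0.93 under those scalings. ARL3, the GTPase that unloads lipidated cargo in the cilium, differed by 0.50, and CEP164, of the distal appendages, by 0.50. RAB8A, a GTPase of membrane delivery, differed by -0.51. TTBK2, the kinase that starts cilium assembly, differed by 0.19, but its 8 probe sets fell apart, with 3 between -1.68 and -1.45 and 5 between -0.29 and 0.32. The median of these 6 genes was 0.34, and -0.18 with the mean of probe sets.

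**Figure D2:**
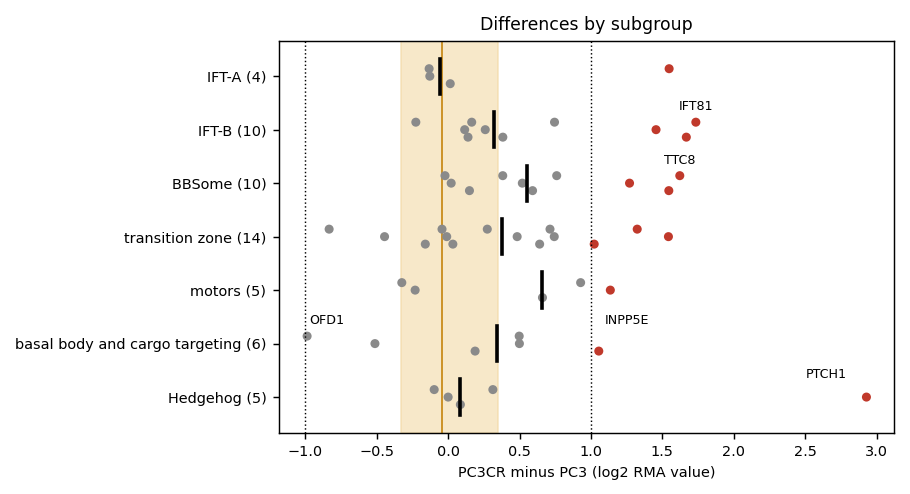
PC3CR minus PC3 on the log2 RMA scale (horizontal axis) for the 54 genes by subgroup, 1 point per gene, and in brackets the number of genes. Red marks genes past 2-fold upward and grey those within 2-fold. Black bars are subgroup medians, the orange band spans the middle quartiles of all genes (-0.33 to 0.35) with their median as a line, and dotted lines mark 2-fold. Each subgroup has at least 1 red point, and PTCH1 lies furthest to the right at 2.93.

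Of the 5 Hedgehog members, PTCH1 was past 2-fold and the other 4 were not. It had 4.50 on the PC3 array and 7.43 on the PC3CR array, 2.93 higher or 7.61-fold, the largest of the 54. SMO, the transducer that PTCH1 restrains, was at 5.57 on both arrays, to the last deposited digit, as were 1817 probe sets in all. KIF7, the kinesin that orders the ciliary tip, was at 6.57 and 6.48. GLI2, the main activator, was at 6.25 and 6.33. GLI3, the main repressor, was at 6.48 and 6.79, while a dimmer probe set of GLI3 went from 4.77 to 6.48, a difference of 1.70. The median of the 5 genes was 0.09, and between -0.05 and -0.01 under the other scalings. The value of PTCH1 rested on 1 of 5 probe sets. The other 4 differed by between -0.09 and 0.23, and 2 of them, at 4.62 and 4.53 and at 4.0 and 4.23, were above the lower quartile on the brighter array. On the PC3 array the probe set at 4.62 was brighter than the one that stands for PTCH1, at 4.50. The latter had the highest mean only through its PC3CR value. As the mean of its probe sets PTCH1 differed by 0.64.

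The other probe sets were examined for all 13 genes past 2-fold. Of these genes, 2 had a single probe set, and 11 had several. For 4 of the 11, IFT80, BBS7, BBS9 and CEP290, at least 1 more probe set was past 2-fold. The 13 genes had 24 further probe sets, of which 10 reached the lower quartile of genes on their brighter array and 5 of those 10 were past 2-fold. For IFT81, IFT74, WDR19 and RPGRIP1L no further probe set reached that level, so that no second probe set in that range was measured.

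**Figure D3:**
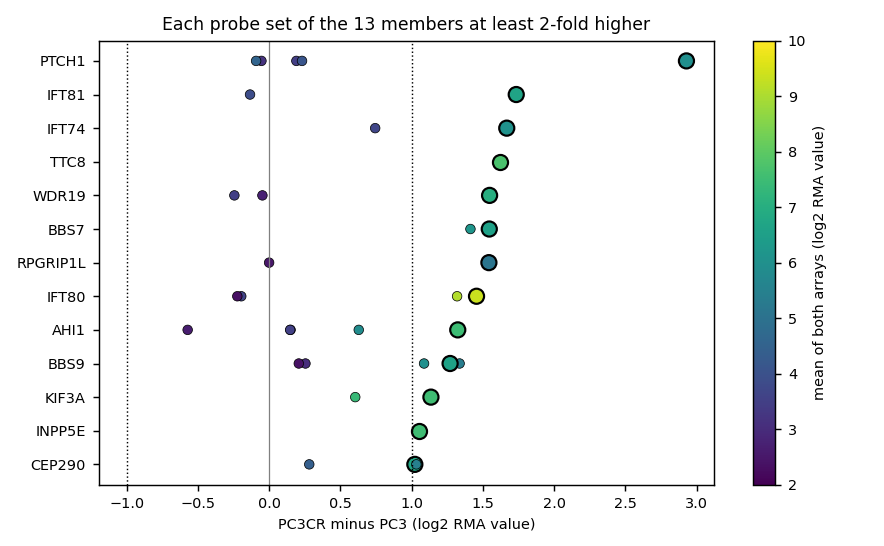
PC3CR minus PC3 on the log2 RMA scale (horizontal axis) of each probe set of the 13 genes at least 2-fold higher, 1 row per gene, coloured by the mean of both arrays. Large points are the brightest probe set, which stands for the gene, and dotted lines mark 2-fold. The small points of PTCH1 lie between -0.09 and 0.23, while those of BBS7 lie past 2-fold.

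Further genes of the same machinery were compared from lists of the pathway. Of all genes, 9.84% passed 2-fold upward and 6.72% downward, the background for each count that follows. Among genes whose higher value reached the array median, these shares were 15.6% and 10.8%. Among 17 other genes of intraflagellar transport, the BBSome and its motors, 3 passed 2-fold upward (17.6%) and 1 downward (5.88%). The median of the 17 was 0.45. LZTFL1, which regulates BBSome traffic, differed by 1.38, with probe sets from -0.17 to 1.38. The IFT-B gene TRAF3IP1 differed by 1.19. The dynein light chain genes DYNLL1 and DYNLRB1, which also serve cytoplasmic dynein, differed by 1.15 and -1.44. Among 31 other genes of the transition zone and basal body, 5 passed 2-fold upward (16.1%) and 1 downward (3.23%), and the median was 0.25. SCLT1, of the distal appendages, went from 4.39 to 6.84, a difference of 2.46, TMEM107 differed by 1.88 and CEP120 by 1.22. RPGR, a retinitis pigmentosa gene of the transition zone that is also X-linked, differed by -1.74.

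Among 25 other genes of the Hedgehog pathway, 3 passed 2-fold upward (12%) and 1 downward (4%), near the 9.84% and 6.72% of all genes, and the median was -0.04, as over all genes. Upward were PRKACB, a catalytic subunit of protein kinase A, at 1.63, DISP1, which releases Hedgehog ligands, at 1.39 and ARRB1 at 1.03. Downward was RAB23, a GTPase that restrains the pathway, at -1.05. The probe sets of ARRB1 ranged from -0.59 to 1.03. The ligand genes SHH, IHH and DHH differed by -0.24, -0.17 and -0.19. Target genes of the pathway were mixed. GLI1, the standard readout of pathway activity, was at 4.29 in PC3 and 4.44 in PC3CR, from a single probe set. These values lay just above the lower quartiles of genes (4.22 in PC3 and 4.10 in PC3CR). HHIP, a ligand decoy, was at 3.94 and 3.44, below the lower quartile on both arrays. Among 10 target genes, PTCH1 included, 2 passed 2-fold upward (20%) and 1 downward (10%). The median of the 10 was 0.03, and 5 lay below the lower quartile on both arrays. The others past 2-fold were SFRP1, a Wnt antagonist, at 1.71, and FOXL1 at -2.41. The probe sets of SFRP1 ranged from -0.36 to 2.67.

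Of 10 ciliary transcription factors, 1 passed 2-fold upward (10%), near the 9.84% of all genes, and none passed it downward. It was RFX5, known mainly for MHC class II genes, at 1.21. RFX7 differed by 0.97 and RFX3, a main activator of ciliary genes, by 0.66, with probe sets of RFX3 from -0.50 to 1.43. RFX2 differed by -0.10 and FOXJ1, the factor of motile cilia, by -0.08. Genes listed for cilium disassembly and suppression were also compared. The list is not one of cilium suppression alone. It holds STIL, which serves centriole duplication, and the mitotic kinase TTK, at 1.34, both past 2-fold upward. Of 13, 7 passed 2-fold upward (53.8%), against 9.84% of all genes, and none downward, against 6.72%. The median of the 13 was 1.23. NEDD9, the scaffold that activates Aurora A at the cilium, differed by 2.45, NEK2 by 2.28, CCP110, which caps the mother centriole, by 1.86 and STIL by 1.56. The probe sets of NEDD9 ranged from -0.42 to 2.45 and those of CCP110 from -0.23 to 1.86. Several of these genes also serve mitosis.

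Cilia are bound to the cell cycle, and proliferation genes moved with the cell line. Of 16 such genes, 12 passed 2-fold upward in PC3CR (75%), against 9.84% of all genes, and none downward. The median of the 16 genes was 1.43. Their summed level on the linear scale was 6351 in PC3 and 15013 in PC3CR. MKI67, the proliferation marker, was at 6.74 and 9.43. Their part in the differences of the cilium genes was not tested. Of 22 motile cilium genes, RSPH9 alone passed 2-fold upward (4.55%), at 1.39, and none passed it downward. The median of the 22 was -0.02, and 7 of them lay below the lower quartile on both arrays. Their summed linear level was 548 in PC3 and 555 in PC3CR. Of 10 ciliary receptors and channels none passed 2-fold in either direction. ADCY3, the ciliary adenylyl cyclase, differed by 0.62 and TRPV4 by -0.45. Of 10 reference genes none passed 2-fold either, with a median of -0.21. The epithelial markers KRT8 and KRT18 were bright on both arrays (9.72 and 9.79, 11.69 and 12.36), while KRT19 differed by -3.28 and EPCAM by -2.49. Fibroblast markers had summed linear levels of 565 in PC3 and 228 in PC3CR, and 3 of the 6 had a difference above 0. COL1A1 alone among them went from 8.69 to 6.56 on the log2 scale, while its probe sets differed by between -2.12 and 0.03. Leukocyte markers had summed linear levels of 97.6 and 98.2, and PTPRC was at 3.03 and 2.95. Of 4 prostate luminal and 6 neuroendocrine markers none passed 2-fold.

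**Figure D4:**
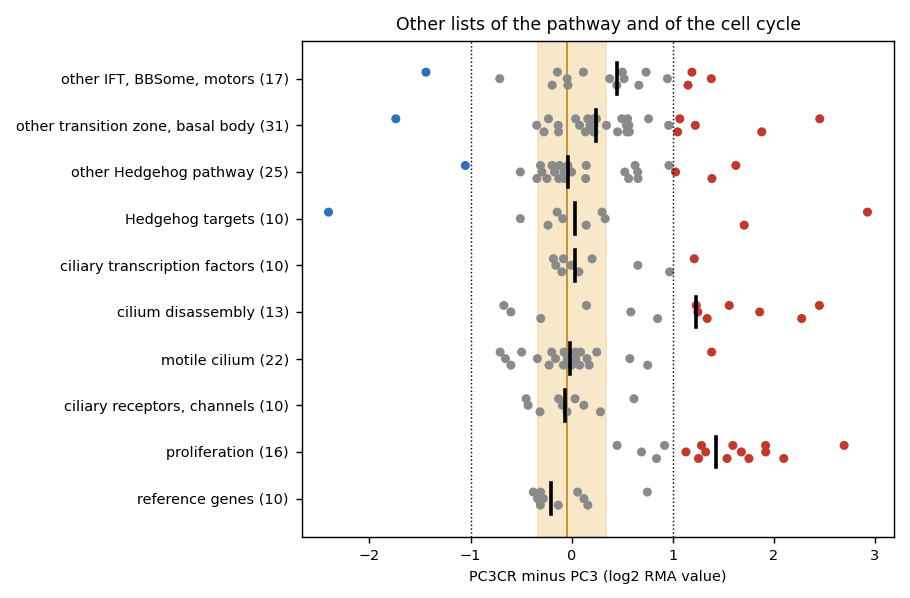
PC3CR minus PC3 on the log2 RMA scale (horizontal axis) for other lists of the pathway, proliferation genes and reference genes, 1 point per gene, and in brackets the number measured. Red marks genes past 2-fold upward, blue those past it downward and grey the rest. Medians of the lists are black bars, and the orange band and line are the middle quartiles and median of all genes. The bars of cilium disassembly (1.23) and proliferation (1.43) lie past the dotted 2-fold line.

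Neighbours on the chromosome were compared, since several cilium genes lie close to cell cycle or repair genes. The 13 genes past 2-fold had 26 measured protein-coding neighbours, the next on either side in the RefSeq order. Of these, 8 (30.8%) were at least 2-fold higher, none passed 2-fold downward, and the median was 0.57. For all 1805 protein-coding genes at least 2-fold higher the corresponding share of neighbours was 19.5%, with a median of 0.17. For the 41 members within 2-fold, 5 of 82 neighbours (6.10%) were higher, against 10.2% for all protein-coding genes within 2-fold. Next to BBS7 lies CCNA2, the cyclin of S phase, which went from 7.43 to 9.36. Next to WDR19 lies RFC1, a subunit of the clamp loader of replication, at 7.96 and 9.08. Next to PTCH1 lies the Fanconi anemia gene FANCC, at 6.12 and 7.16, while ERCC6L2 on the other side was at 6.06 and 5.97. IFT80 is flanked by SMC4, a condensin subunit within 2-fold at 9.54 and 10.29, and by C3orf80, at 4.64 and 6.51. CEP290 lies next to TMTC3, at 6.55 and 8.45. The remaining neighbours past 2-fold were EML5 next to TTC8 at 1.88, SEPTIN8 next to KIF3A at 1.62 and RP9 next to BBS9 at 1.30. The neighbours of IFT81 and IFT74 did not share the higher values, with differences of 0.03 and 0.19 for IFT81 and -0.11 and 0.10 for IFT74. How far the shared position bears on these values was not tested.

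**Figure D5:**
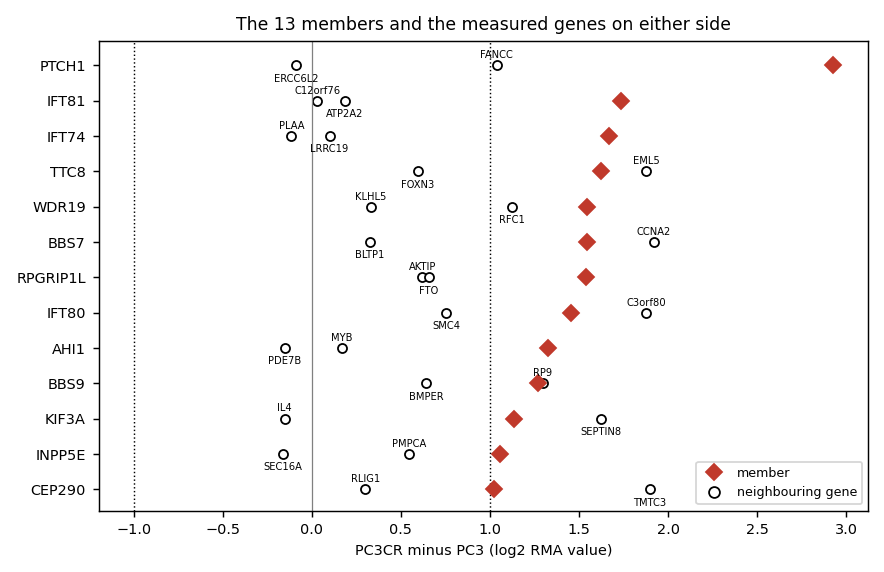
PC3CR minus PC3 on the log2 RMA scale (horizontal axis) of the 13 genes at least 2-fold higher (red diamonds) and of the measured protein-coding genes on either side of each (open circles, named), 1 row per gene. Dotted lines mark 2-fold. Of 26 open circles 8 lie past 2-fold, among them CCNA2 next to BBS7, and those of IFT81 and IFT74 lie near 0.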

How the data were processed

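Gene expression was measured in PC3 and PC3CR, 1 array each. Deposited were log2 values of probe sets, which the authors made with RMA, and their processing notes name Affymetrix Expression Console 1.4 and Transcriptome Analysis Console 3.1. RMA equalises the distributions of arrays, so a difference holds against the remaining probe sets. The probe set annotation is that of another Affymetrix array than the Human Gene ST array named in the methods. Of 54613 probe sets, 41091 had 1 gene symbol and were used, 1801 had several and 11721 were unnamed here. Symbols were updated through Entrez IDs to RefSeq (GRCh38.p14) for 41037.

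For each of 19775 genes the probe set brightest on average was taken, and PC3CR minus PC3 was counted at 2-fold. The members and lists were chosen with earlier results of these data known. Values are given for every member past 2-fold, the member furthest from 0 in each subgroup, the Hedgehog members, and up to 4 genes of each other list. Neighbours, and the genes of other lists named beyond these, were chosen after the values were seen. Values were computed with pandas 2.3.3 and numpy 2.4.6 under Python 3.11.15, loess with statsmodels 0.14.6 (span 0.4) and plots with matplotlib 3.10.9. The 2-fold rule was tested on simulated data. Some listed genes were not analysed here.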

Additional observations from a re-analysis of the deposited data

How the results depend on the processing

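No paired analysis was possible because each cell line had 1 array, and no value has a replicate check. Medians that changed by more than 0.1 (log2) and counts that changed by more than 1.5 times are given, and the cause was not tested.

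The number of members at least 2-fold higher, 13, was 10 to 12 under the other scalings, the floor at the median and probe sets without an _s_, _x_ or _a_ suffix, and 13 with a floor at the lower quartile. It was 4 of 54 (7.41%) when probe sets were averaged, against 6.92% of all genes. With the dimmest probe set it was also 4 of 54, against 6.50% of all genes, so that both shares were near the background. It was 21 at 1.5-fold and 4 at 3-fold, for which the share over all genes is not given here. Of the 13 genes, 4 remained with the mean of probe sets (IFT74, TTC8, BBS7 and INPP5E) and 3 with the dimmest (TTC8, BBS7 and INPP5E). TTC8 and INPP5E had a single probe set, so neither setting could change them. Of the 11 genes with several probe sets, only IFT74 and BBS7 remained with the mean and only BBS7 with the dimmest. The number at least 2-fold lower, 0, was 1 (OFD1) for averaged probe sets, the dimmest probe set, probe sets without those suffixes, median centring, loess centring and quantile normalization, and 2 at 1.5-fold. The median of the members, 0.35, was 0.22 under median centring, 0.25 under loess centring, 0.24 under quantile normalization and 0.092 with the dimmest probe set, and the mean in its place was 0.48.

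For IFT-A (-0.06) the median was 0.061 with the mean of probe sets, 0.11 with the dimmest, -0.18 under median centring, and the mean over genes was 0.33. For IFT-B (0.32) it was 1.32 without suffixes, where 5 genes were left, 0.16 with the dimmest and 0.20 under median centring, and the mean was 0.64. For the BBSome (0.56) it was 0.43 under median centring, and the mean was 0.68. For the transition zone (0.38) it was 0.21 with the mean of probe sets, -0.11 with the dimmest, 0.26 under median centring, 0.25 under quantile normalization and 0.26 with the floor at the median. For the motors (0.66) it was 0.54 under median centring, 0.52 under loess centring and 0.51 under quantile normalization, and the mean was 0.43. For the basal body and cargo targeting genes (0.34) it was -0.18 with the mean of probe sets, 0.19 without suffixes, -0.27 with the dimmest, 0.22 under median centring, 0.20 under loess centring and 0.19 under quantile normalization, and the mean was 0.12. For the Hedgehog genes (0.09) it was -0.054 with the dimmest, -0.038 under median centring, -0.054 under quantile normalization and 0.20 with the floor at the median, and the mean was 0.65.

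With the dimmest probe set AHI1 turned to -0.57, IFT80 to -0.22, IFT81 to -0.13, PTCH1 to -0.054 and WDR19 to -0.047, and without suffixes WDR19 turned to -0.24. The dimmest probe sets of these genes lay below the lower quartile on both arrays.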

Other observations

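By chromosome, the 3 members on chromosome 9, IFT74, PTCH1 and INPP5E, were all at least 2-fold higher in PC3CR, as were 13.5% of the 653 protein-coding genes measured there (median difference 0.10). Of these 3, PTCH1 differed by 0.64 with its probe sets averaged, and INPP5E by 0.92 to 0.93 under the other scalings. None of the 5 members on chromosome 11 was at least 2-fold higher, where 6.12% of 996 genes were. The chromosomes named here were not fixed beforehand. The X-linked member OFD1 and the X-linked gene RPGR were both lower in PC3CR, at -0.99 and -1.74, while 10.0% of 628 genes of that chromosome were at least 2-fold lower and their median was -0.17. The measured genes on either side of OFD1, TRAPPC2 and GPM6B, differed by -0.31 and 0.00.

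Neighbours at least 2-fold lower were counted too, beside 6.72% of all genes. None was among the 26 neighbours of the higher members. For all protein-coding genes at least 2-fold higher, 168 of 3605 neighbours were. Among the 82 neighbours of the members within 2-fold there were 3. For all protein-coding genes within 2-fold, 1887 of 26890 neighbours were. Counts as small as those of the members do not show a scarcity. The 3 were IL17D, at -2.78 next to IFT88, INHBB and INHBA. INHBB next to GLI2 was at 9.44 in PC3 and 4.59 in PC3CR, and INHBA next to GLI3 was at 9.14 and 4.52, both encoding inhibin and activin subunits, while GLI2 and GLI3 themselves lay within 2-fold.

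TMEM67, a receptor-like protein of the transition zone within 2-fold at 0.64, had 7 probe sets with differences between 0.26 and 2.34, of which 4 were under the lower quartile in PC3 and in PC3CR.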
